A study of Arabidopsis thaliana with 3 samples.

Results

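The sites described here are moderate UBP5-GFP peaks whose summits, the positions of highest signal, lay in an intron close to the start of a gene. They were chosen by measured values. A replicate 1 peak had to overlap a replicate 2 peak by at least 1 bp, the lower fold enrichment of the pair had to be under 3, and the replicate 1 summit had to lie in an intron, free of any annotated exon, 0 to 600 bp downstream of the transcription start site (TSS) of a protein-coding gene on a chromosome arm. In all, 1559 sites in 1559 genes met the rule, 17.5% of the 8887 replicate 1 peaks shared with replicate 2 and 26.8% of the 5813 moderate summits in the same distance window. Of these, 513 (32.9%) lay in introns inside the 5′ UTR and 975 (62.5%) in introns of the coding part. A further 69 lay in introns that are in the 5′ UTR of one annotated transcript and in the coding part of another, and 2 in introns after the coding part. The name "first introns" held for most members: 1468 (94.2%) were in intron 1 of the transcript, with 507 of the 513 5′ UTR members and 897 of the 975 coding members there, and 77 coding members in intron 2.

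Chromatin immunoprecipitation with sequencing was done on Arabidopsis thaliana seedlings, Col-0 background, harvested 12 days after germination. The line carried UBP5::UBP5-GFP, a fusion driven by the gene's own promoter, in the ubp5 mutant, and this genotype was common to all libraries. Chromatin was fixed with 25 mM EGS and 1% formaldehyde, sheared to 200 to 500 bp and precipitated with anti-GFP in 2 replicates, with 1 input library and no IP from plants lacking GFP, so that UBP5 occupancy and IP background not seen in the input cannot be told apart. Whole seedlings were used, and occupancy in a few cells and weak occupancy in many give the same fold enrichment.

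UBP5 is a ubiquitin-specific protease that removes ubiquitin from histone H2A, the mark placed by Polycomb repressive complex 1. The paper proposes that UBP5 also counteracts Polycomb repressive complex 2, which methylates lysine 27 of histone H3. The short words called Telobox and GAGA are known in plants as docking words for factors that bring Polycomb complexes to DNA. First introns of Arabidopsis genes, in the 5′ UTR or soon after the start codon, can raise the expression of their gene in a way that depends on their sequence, and words such as CGATT and TTNGATNTG are known to be frequent in introns that do so.

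The DNA under the members is shown first for those with a Telobox closest to the replicate 1 summit, 5 and 4 in the classes, since this word had, of the 4 words searched, the largest ratio of words per Mb between introns with a site and introns without one. Each line gives 30 bases of the TAIR10.1 assembly on the strand of the gene, 5′ to 3′, with the 8-letter word in capitals. The first 5 are in 5′ UTR introns and the next 4 in coding introns, and the last pair shows long CT runs, also in capitals, in coding introns.
AT1G22040, Chr1:7768210-7768239, + strand: aaaaataaaatTAGGGTTTacttgtatcgg
AT2G40085, Chr2:16737082-16737111, - strand: ctacatttgatAAACCCTAgagagaaacaa
AT5G07940, Chr5:2533906-2533935, + strand: tccctctgtggAAACCCTAattcttgctat
AT5G44150, Chr5:17765148-17765177, - strand: ttgtggagtagAAACCCTAattttggttca
OBE2, Chr5:19529947-19529976, - strand: tgataaataatTAGGGTTTtcaatttctgg
LSM3B, Chr1:28855355-28855384, - strand: gggggaaagtcTAGGGTTTtgattttcaag
UBQ7, Chr2:14981134-14981163, + strand: caggtttaattTAGGGTTTcttctcttctt
TDP1, Chr5:4929261-4929290, - strand: aattcaaaacaAAACCCTAatttccgtttc
AT5G67610, Chr5:26963459-26963488, - strand: tggttgaaattTAGGGTTTatatcgcttaa
AT2G20480, Chr2:8831356-8831385, - strand: aggatCTCTCTCTCTCTCTCTCTCTatttt
STV1, Chr3:19661864-19661893, - strand: atctcacCTCTCTCTCTCTCTCTgtatctg
The 9 Telobox stretches lie in intron 1 of their genes, and in the stretch of UBQ7 the leading 3 bases belong to the exon before the intron. Read along the gene, the word appears as TAGGGTTT in OBE2, LSM3B, UBQ7, AT1G22040 and AT5G67610 and as AAACCCTA in the other 4.

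The genes behind these stretches cover several roles, and all were moderate by construction. For UBQ7, a ubiquitin-coding gene, the fold enrichments of replicates 1 and 2 were 2.65 and 1.99, with the word centre 1 bp from the summit and the summit 11 bp into its intron of 255 bp. LSM3B, a subunit of the Sm-like rings that act in RNA splicing and decay, had 3.16 and 2.80, and TDP1, a tyrosyl-DNA phosphodiesterase that acts in DNA repair, had 2.87 and 2.38. Among the 5′ UTR introns, OBE2, a PHD finger protein of meristem development, had 2.47 and 1.86, and AT1G22040, a kelch repeat gene, had 2.69 and 2.15. In each of these 5 genes replicate 1 gave the higher value. STV1, which codes for ribosomal protein L24, carried a CT run of 16 bases and had 2.49 and 2.12, and AT2G20480, of no annotated function, had a run of 20 bases and 1.93 and 1.89.

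Fold enrichment compares the number of stacked IP fragments under the summit with the level that the peak caller expects from the input. Since this value chose the members, it is given as a description with no test. Among 5′ UTR introns it ran from 1.62 through a median of 2.42 to 4.29 in replicate 1 and from 1.35 through 1.89 to 3.00 in replicate 2. Among coding introns it ran from 1.41 through 2.42 to 4.33 in replicate 1 and from 1.32 through 1.91 to 2.99 in replicate 2. The classes therefore overlapped over almost their whole range, and the difference between their medians was 0 in replicate 1 and -0.01 on the log2 scale in replicate 2. Replicate 1 exceeded replicate 2 in 97.1% of the 5′ UTR members and 98.2% of the coding members. Most members stood where the input was at its background level within 5%, in replicate 1 97.9% and 96.6% of the classes and in replicate 2 98.6% and 97.0%, so that their fold enrichment follows the IP pileup. The median pileup of all members, worked out from fold enrichment and p-value, was 108 fragments in replicate 1 against a background level of 44.0, and 233 in replicate 2 against 121 after the caller's scaling.

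**Figure D1:**
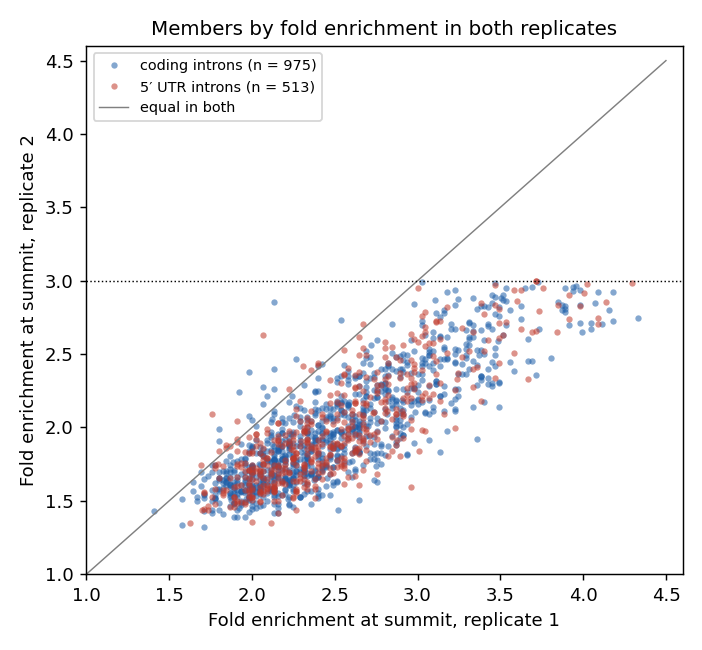
Fold enrichment at the summit in replicate 1 (x axis) and replicate 2 (y axis), 1 point per member in a 5′ UTR intron (red, n = 513) or a coding intron (blue, n = 975). The grey line marks equal values and the dotted line a fold enrichment of 3 in replicate 2; the classes share 1 cloud, and most points lie below the line of equal values.

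At the upper edge of the range, the highest lower values in 5′ UTR introns belonged to ETR1, an ethylene receptor, and AT3G01740, a mitochondrial ribosomal protein L37, each with 3.71 and 3.00 in replicates 1 and 2. AT3G05940, annotated as an organic solute transporter, followed with 4.29 and 2.98, RPS19, ribosomal protein S19, with 4.03 and 2.98, and AE7, a MIP18 family protein, with 3.47 and 2.97. In coding introns TO2, thioredoxin O2, was among the highest, with 3.02 and 2.99. AT3G50550, of no annotated function, had 3.47 and 2.98, AT3G23325, a splicing factor 3B subunit, had 3.96 and 2.97, and AT2G25950, a PITH domain protein, had 3.94 and 2.96. In all 9 the lower value was that of replicate 2. The replicate 2 summit of TO2 lay 350 bp upstream of its TSS, while those of the other 8 stayed downstream of theirs.

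At the lower edge, ASHH3, a SET domain gene, had 1.71 and 1.32 in intron 2, and AT4G20670, a cysteine-rich secretory gene, had 1.58 and 1.33. The pileup of AT4G20670 was 315 and 706 fragments, against medians of 108 and 233 over all members, so its low ratio stands on a high input level. AT5G63490, a CBS domain gene, had 1.62 and 1.35, and AO, the aspartate oxidase of NAD synthesis, had 2.11 and 1.35. The largest ratio between replicates was that of AT3G01340, a WD40 repeat gene, with 2.96 against 1.59, followed by AT1G09330, an ECHIDNA-like Golgi gene, with 2.65 against 1.51 and AT3G19515, annotated as an apoptosis inhibitor, with 2.52 against 1.44. Just inside the limit of 3 the lower values were 2.997 for ETR1 and AT3G01740, and just outside it they were 3.002 for PHB1, a prohibitin, and 3.008 for SR34, a splicing factor, with 174 intron summits at or above the limit in all. ECT2 was the member farthest from its TSS, at 600 bp, and the nearest moderate intron summit beyond the window was at 602 bp in AT5G20000. A further 34 moderate summits lay in an intron of the gene but in an exon of another gene and were not members.

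To ask how often an intron of each kind carries a site, all introns with at least 1 exon-free base in the same window were counted. There were 19251, and 8.1% of them held a member. The share was 16.6% of the 3096 eligible 5′ UTR introns (513) and 6.39% of the 15268 eligible coding introns (975). With the same rule applied to the replicate 2 summits, the shares were 16.8% and 6.43%, so that the means were 16.7% ± 0.141 and 6.41% ± 0.0283 (SD, n = 2 replicates). The difference between the classes is thus far larger than the spread between the replicates. With 2 replicates no test across replicates was made, and the SDs come from the same pairs of peaks and a common input, so that they understate the error of a new experiment.

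Since 5′ UTR introns are longer and start closer to the TSS, the share was also taken by length. Among introns under 100 bp, 6.94% of 389 5′ UTR introns and 3.45% of 5657 coding introns held a member in replicate 1, and 5.14% and 3.54% did so in replicate 2. From 300 to 499 bp, the class with the highest shares, they were 22.2% of 781 and 12.5% of 2042 in replicate 1, and 23.6% and 11.3% in replicate 2. At 500 bp or more they were 15.0% and 7.99% in replicate 1, and 17.0% and 7.67% in replicate 2. In all 5 length classes the share was higher in 5′ UTR introns with either set of summits.

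**Figure D2:**
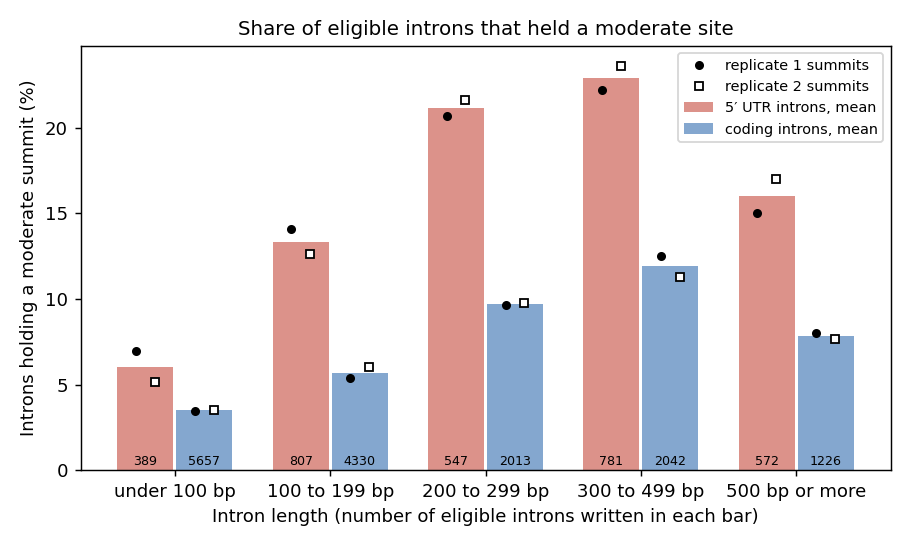
Share of eligible introns that held a moderate site (y axis, percent) by intron length (x axis) for 5′ UTR introns (red) and coding introns (blue). Bars are means of the values from replicate 1 summits (black points) and replicate 2 summits (open squares), with the number of introns written in each bar; in every length class both red values lie above both blue values, the narrowest gap being that under 100 bp.

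The share also varied with the position of the 5′ splice site, where the intron begins. For coding introns that began 0 to 99 bp from the TSS it was 2.06% in replicate 1 and 2.58% in replicate 2, for those that began at 200 to 299 bp it was 13.3% and 14.3%, and for those that began at 400 to 600 bp it was 2.27% and 2.10%. For 5′ UTR introns the same 3 groups gave 5.79% and 5.58%, then 20.3% and 21.7%, then 6.41% and 6.62%, with a maximum of 24.2% and 24.0% where the intron began at 100 to 199 bp. When only introns of 200 to 499 bp that began 100 to 299 bp from the TSS were set side by side, 27.0% and 29.1% of 793 5′ UTR introns and 22.1% and 22.1% of 1129 coding introns held a member in replicates 1 and 2. The gap between the classes was therefore much smaller among introns of similar length and place, 28.1% ± 1.52 against 22.1% ± 0.0626 (SD, n = 2), and still larger than the spread between the replicates.

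Expressed per Mb of sequence, sites were counted in introns and in the exons around them in the same windows of distance from the TSS. Between 200 and 400 bp downstream, moderate sites numbered 1383 ± 34.4 per Mb of 5′ UTR intron (1359 and 1407 in replicates 1 and 2) and 924 ± 62.3 per Mb of coding intron (879.7 and 968). In exons they numbered 736 ± 8.92 per Mb of 5′ UTR exon and 746 ± 41.3 per Mb of coding exon (SD, n = 2 for each). Over this window as a whole, introns of both kinds thus carried more sites per Mb than exons. The excess over exons was larger than the spread of the replicates. For coding introns it did not hold throughout the window. From 350 to 400 bp they had 680 and 658 sites per Mb in replicates 1 and 2. There 5′ UTR exons had 803 and 958, and coding exons 576 and 683. From 300 to 350 bp in replicate 1, coding introns had 908 against 941 in 5′ UTR exons. From 0 to 200 bp, intron sites were denser as well, with 569 ± 78.9 per Mb of 5′ UTR intron against 53.8 ± 13.6 per Mb of 5′ UTR exon, although those 5′ UTR exons include the TSS itself, where few summits fell. From 400 to 600 bp this was no longer so: 5′ UTR introns had 416 ± 12.2 and 5′ UTR exons 474 ± 1.22 per Mb, while coding introns had 271 ± 28.6 and coding exons 304 ± 4.63.

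**Figure D3:**
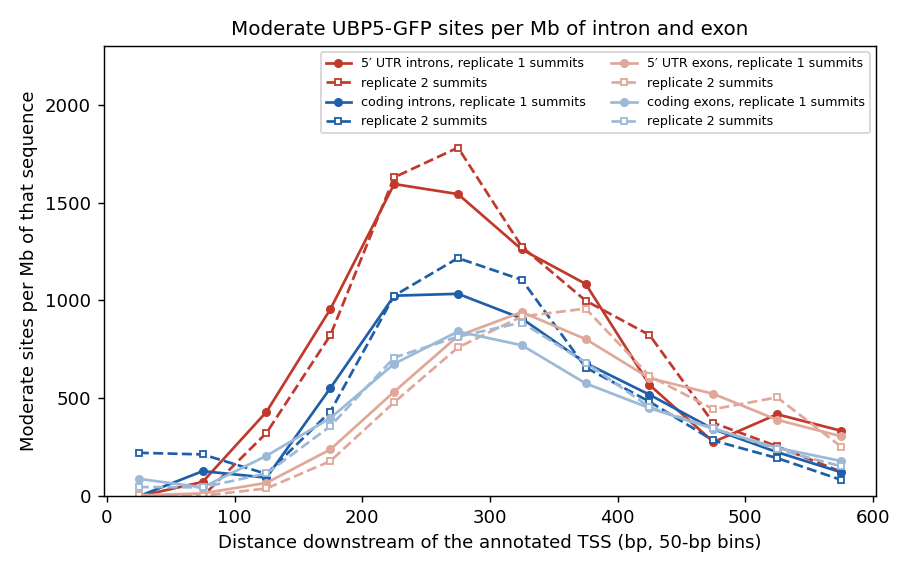
Moderate sites per Mb of sequence of each kind (y axis) in 50-bp bins of distance downstream of the TSS (x axis), from replicate 1 summits (solid lines) and replicate 2 summits (dashed lines), for 5′ UTR introns, coding introns, 5′ UTR exons and coding exons. The 5′ UTR introns reach 1595 sites per Mb between 200 and 250 bp in replicate 1 and 1781 between 250 and 300 bp in replicate 2, and lie above the other kinds from 100 to 400 bp in both replicates.

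Summits in 5′ UTR introns lay at a median of 300.0 bp from the TSS in replicate 1 and 299 bp in replicate 2, and those in coding introns at 348 and 334 bp. The difference, 5′ UTR introns minus coding introns, was -48 and -35 bp, a mean of -41.5 ± 9.19 (SD, n = 2). The middle 50% of the distances ran from 241 to 373 bp and from 279 to 434 bp in replicate 1, so that the classes overlapped broadly. The peaks, with a median width of 428 bp for 5′ UTR members and 452 bp for coding members in replicate 1, seldom reached the TSS: 2.73% and 2.97% of them covered it in replicate 1, and 4.87% and 4.51% in replicate 2.

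Within the intron, the summit was usually in its 5′ part. It was nearer the 5′ than the 3′ splice site in 72.3% and 76.8% of the 5′ UTR members, placed by replicate 1 and by replicate 2, and in 76.2% and 76.7% of the coding members. The median distance from the 5′ splice site was 84 and 88 bp in 5′ UTR introns and 54 and 50.5 bp in coding introns, a difference of 33.8 ± 5.30 bp (SD, n = 2). The rule itself favours that side, as the window ends 600 bp from the TSS and cuts introns that run past it. The introns with a member had a median length of 304 bp in the 5′ UTR and 231 bp in the coding part, against 256 and 123 bp over all eligible introns.

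**Figure D4:**
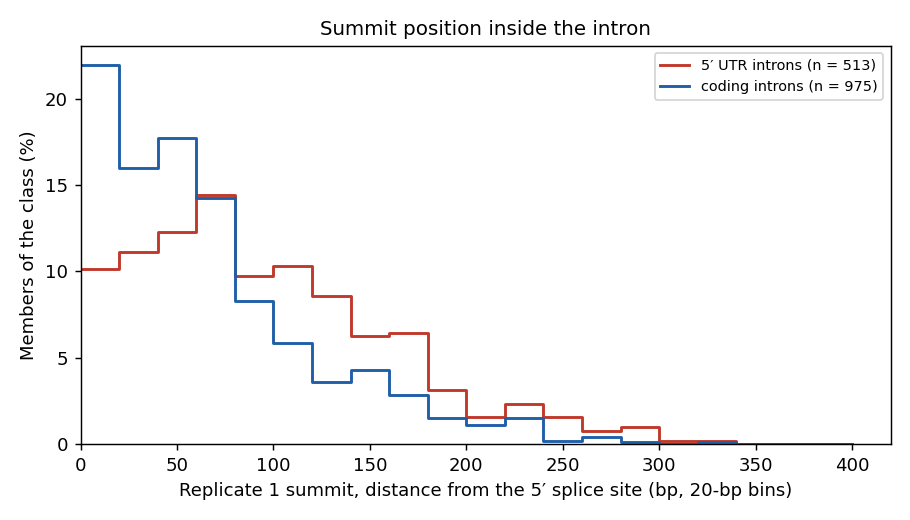
Distance of the replicate 1 summit from the 5′ splice site (x axis, bp, 20-bp bins) as a share of the members of each class (y axis, percent), for 5′ UTR introns (red, n = 513) and coding introns (blue, n = 975). The coding members are most frequent in the 20 bp next to the splice site, and the 5′ UTR members spread further into the intron.

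In the longest introns with a member the rule fixed this placement, since the window ends 600 bp from the TSS. AT5G43822, a pentatricopeptide repeat gene, had a 5′ UTR intron of 1944 bp with the summit 90 bp in, and fold enrichments of 2.34 and 1.62. AT2G32240 had one of 1662 bp with the summit at 223 bp, and AT2G27090 one of 1319 bp with the summit at 124 bp. In coding introns, ERG28, a sterol synthesis gene, had 1167 bp and 149 bp, KAPP, a kinase-associated phosphatase, 1144 bp and 127 bp, and AT5G16240, an acyl carrier protein desaturase, 1128 bp and 126 bp. All 6 replicate 1 summits lay within 500 bp of the TSS.

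The replicate 2 summit was not used to place the members, although each member had to overlap a replicate 2 peak and both lists were called against the same input. It fell in the same intron for 425 of 513 5′ UTR members (82.8%) and for 662 of 975 coding members (67.9%). The median offset between the summits was 36 bp in 5′ UTR introns, 45 bp in coding introns, 38 bp at moderate sites in 5′ UTR exons and 39 bp at those in coding exons. Of the coding members, 262 (26.9%) had the replicate 2 summit in a coding exon, and of the 5′ UTR members 56 (10.9%) had it in a 5′ UTR exon and 24 (4.68%) in a coding exon. Intron length moved with this share. In introns under 100 bp it was 37.0% of 27 5′ UTR members and 46.7% of 195 coding members, and in introns of 300 to 499 bp it was 94.2% of 173 and 76.2% of 256. Over introns of all lengths, 1143 of the 1559 genes (73.3%) were also members when replicate 2 placed the site, which is 72.6% of the 1574 genes of that placement.

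The Telobox word AAACCCTA was searched on both strands within 100 bp of the summit, in windows of 201 bp that can reach into the neighbouring exons. It was found at 117 of 513 5′ UTR members (22.8%) and 160 of 975 coding members (16.4%) in replicate 1, and at 21.9% and 18.0% of the sites in replicate 2. Over all 6477 shared arm summits in the distance window the share was 16.7%. At moderate sites in 5′ UTR exons it was 21.0% and 20.4% in replicates 1 and 2, close to that of 5′ UTR members, and in coding exons 10.7% and 11%. The difference between the classes, 6.4 percentage points in replicate 1 and 3.9 in replicate 2, had a mean of 5.15 ± 1.77 (SD, n = 2). Windows of the same length at the middle of every eligible intron held the word in 12.3% of 5′ UTR introns and 6.40% of coding introns, so that the classes differed in this direction also without regard to peaks.

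Within the introns themselves, counted over their exon-free bases in the window, Telobox words were denser where a site was present. Introns with a member held 1033 words per Mb in the 5′ UTR and 1063 in the coding part by replicate 1 summits, and 1088 and 1070 by replicate 2 summits. Introns with no shared summit in either replicate held 434 and 342 words per Mb. Among introns of 200 to 499 bp that began 100 to 299 bp from the TSS, 5′ UTR introns had 1220 and 1197 words per Mb with a member and 455 without, and coding introns had 920.3 and 956 with and 309 without. Conversely, 36.5% and 40.1% of the 334 eligible 5′ UTR introns with the word held a member in replicates 1 and 2, against 14.2% and 14.0% of the 2762 without it. For coding introns it was 23.3% and 23.4% of 807 against 5.44% and 5.48% of 14461. Most members had no Telobox in their intron.

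The strand of the word was uneven. Near the summits of coding members, 138 of 171 words (80.7%) in replicate 1 and 82.9% of those in replicate 2 lay on the strand opposite to the gene, that is, they read TAGGGTTT along it, and for 5′ UTR members the shares were 73.8% and 75.6%. At moderate sites in coding exons the shares were 42.9% and 49.2%, and in 5′ UTR exons 66.5% and 69.4%. The same strand held most of the words in introns without a shared summit, 74.6% in the 5′ UTR and 77.7% in the coding part, so that it was a property of introns with or without a site. Of the words within 100 bp of the summit, 97 of 126 (77.0%) at 5′ UTR members and 152 of 171 (88.9%) at coding members lay in an intron.

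The GAGA word, GAGAGAGA on either strand, was read with copies that overlap each other counted separately. It occurred within 100 bp of the summit at 20 of 513 5′ UTR members (3.9%) and 78 of 975 coding members (8.00%) in replicate 1, and at 5.37% and 10.7% of the sites in replicate 2. The share over all shared arm summits in the window was 7.55%, so that 5′ UTR members fell below it and coding members stood near or above it. The difference between the classes was -4.10 percentage points in replicate 1 and -5.33 in replicate 2, a mean of -4.72 ± 0.870 (SD, n = 2). Those shares cover only 100 bp to each side. From 200 to 180 and from 180 to 160 bp upstream of replicate 1 summits, copies numbered 9.16 and 9.36 per 100 5′ UTR sites. Coding members had 6.56 and 4.10 there. By replicate 2 summits the values were 6.14 and 11.1 for 5′ UTR members and 5.91 and 3.16 for coding members. In the introns, the word was present in 8.82% of coding introns with a member by replicate 1 summits and in 3.05% of those with no shared summit, and in 3.9% and 4.11% of 5′ UTR introns. Among introns of 200 to 499 bp that began 100 to 299 bp from the TSS, copies numbered 211 and 256 per Mb in 5′ UTR introns with a member in replicates 1 and 2 against 513 without a summit, and 747 and 770.2 against 540.3 in coding introns. The 5′ UTR values with a member rest on 14 and 18 copies, and over eligible 5′ UTR introns of all lengths the densities were close, with 490 and 504 copies per Mb with a member against 513 without a summit. Long CT runs carried by single genes weigh on any count of copies: 226 copies on the opposite strand came from 98 coding introns placed by replicate 2.

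The words known from expression-enhancing introns, CGATT and TTNGATNTG (N being any base), were also more frequent in introns with a member. CGATT, on both strands, numbered 4849 and 4798 per Mb in 5′ UTR introns with a member in replicates 1 and 2 against 2725 in those with no shared summit, and 4543 and 4721 against 1929 in coding introns. TTNGATNTG numbered 822 and 884 against 623 per Mb in 5′ UTR introns, and 812 and 760.1 against 606 in coding introns. Among introns of similar length and place, the limits being those given above, TTNGATNTG numbered 813 and 840.5 against 571 in the 5′ UTR and 774 and 797 against 600.4 in the coding part. Both classes thus showed these words in the same direction, with a wider gap for CGATT than for TTNGATNTG. Near the summit CGATT was not particular to introns: within 100 bp it was found at 59.8% and 62.5% of all members in replicates 1 and 2, at 62.4% and 61.5% of moderate sites in 5′ UTR exons and at 60.1% and 61.4% of those in coding exons. In the introns the base composition moved with the words: the median GC content of introns with a member was 33.7% in the 5′ UTR and 34.1% in the coding part, against 32.1% and 31.5% without a summit, and its part in the word counts was not tested.

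**Figure D5:**
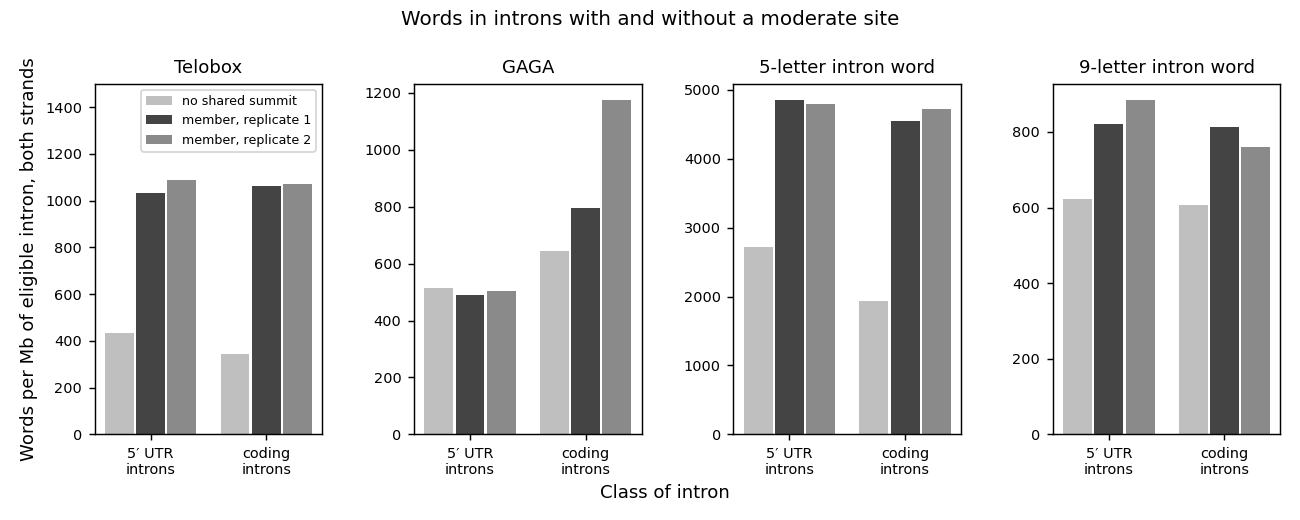
Words per Mb of eligible intron on both strands (y axis, a scale for each word) in 5′ UTR introns and coding introns (x axis) with no shared summit (light grey) or with a member placed by replicate 1 (dark grey) or replicate 2 (mid grey). For the Telobox and the 5-letter and 9-letter intron words both dark bars stand above the light bar in both classes, while for GAGA this holds in coding introns only (490 and 504 against 513 in 5′ UTR introns).

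Alternative starts of transcription separated the classes. A transcript annotated to begin downstream of the middle of the intron was present for 37.3% of eligible 5′ UTR introns and 4.64% of eligible coding introns. Of the 1155 5′ UTR introns with such a start, 6.58% held a member in replicate 1 and 7.88% in replicate 2, and of the 1941 without one, 22.5% and 22.2% did. For coding introns the shares were 4.80% and 4.94% of 709 against 6.46% and 6.5% of 14559. Among genes whose annotated transcripts all began upstream of the intron, 5′ UTR introns thus held a member more often than over all 5′ UTR introns. Distance was counted from the outermost annotated TSS of the gene, and which start was used in these seedlings was not analysed here.

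The members fell in genes of many functions, read from the product names of the annotation. Of 14327 genes with an eligible intron, 10.9% held a member. Among 15 groups, the share was highest for genes with a proteasome term, 17 of 39 (43.6%), followed by respiration with 28 of 98 (28.6%), RNA binding and splicing with 66 of 266 (24.8%), vesicle traffic with 28 of 134 (20.9%), DNA replication and repair with 11 of 53 (20.8%), chromatin with 33 of 159 (20.8%) and translation factors with 18 of 89 (20.2%). The share was lower than over all genes for phosphatases with 16 of 189 (8.47%), transcription factors with 68 of 798 (8.52%), transporters with 37 of 404 (9.16%) and kinases with 64 of 634 (10.1%). Ribosomal proteins had 39 of 249 (15.7%) and the ubiquitin system 75 of 511 (14.7%). These are counts with no test, the groups differ in the length and place of their introns, and groups were chosen with results of these data known.

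Of 37 genes with a proteasome term and an eligible coding intron, 15 (40.5%) held a member there. For eligible 5′ UTR introns it was 2 of 5 (40%), so the share was alike in both classes. The 17 members with the term thus lay mostly in coding introns, 15 in all, as did the eligible introns. They include subunits of the 20S core, chosen here after their values were seen: PAE2 with 3.16 and 2.23 in replicates 1 and 2, PBD1 with 3.14 and 2.63, PAD1 with 2.87 and 2.01, PAF1 with 2.87 and 2.16, PBG1 with 2.58 and 2.32 and PAD2 with 2.11 and 1.56. PBE1 (2.60 and 2.01) and PBB2 (2.42 and 1.65) were the members of the group in 5′ UTR introns. RPN1A, a subunit of the regulatory particle, had 2.05 and 1.68, and PA200, a proteasome activator, had 2.34 and 1.88. FUS12 (2.00 and 1.74) and COP8 (2.22 and 1.93) share the term through their domain and are subunits of the COP9 signalosome, a related complex that removes the ubiquitin-like NEDD8. The group median was 2.42 and 1.97, against 2.42 and 1.90 for all members.

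Respiration was represented by subunits of several mitochondrial complexes, and the examples were again chosen after their values were seen. FRO1, a subunit of complex I, had 3.49 and 2.31, COX6B of cytochrome c oxidase had 2.31 and 1.71, and ATP3, the gamma subunit of ATP synthase, had 3.22 and 2.44. The group also took in AT3G58730, a subunit of the vacuolar ATPase, with 2.38 and 1.85, and CBR, a cytochrome b5 reductase, with 2.78 and 2.401, neither of which belongs to the respiratory chain.

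Of 68 listed genes, 12 (17.6%) held a member, against 5.68% of all 27444 protein-coding genes and 10.9% of those with an eligible intron. Part of the list was chosen as gene families known to have 5′ UTR introns. Of all genes with an eligible 5′ UTR intron, 18% held a member there, so the higher share of the list is partly built in. The listed genes, of Polycomb, ubiquitin, motif-binding, cytoskeletal, clock, light and respiration roles with SAMBA, GC4, GAF1, UPP, ACT1 and NDA2 besides, were not restricted to genes with an eligible intron, and none of these 6, of the 6 light genes or of the 2 respiration genes was a member. The lists were not complete, as UBQ7, shown above, is a member outside them. So is AT1G03760, a prefoldin gene among the UBP5 targets that the paper tested by ChIP-qPCR, with 3.47 and 2.89 in a coding intron. Of the 8 listed PRC2 genes, SWN, which codes for a histone methyltransferase subunit, had 2.31 and 1.71 with the summit 4 bp into a coding intron of 251 bp. FIE, the WD40 subunit, had 2.49 and 1.73 in a coding intron of 1031 bp, and VRN2, a zinc finger subunit, had 2.23 and 1.85 in a 5′ UTR intron of 333 bp. None of the 7 matched PRC1 and associated genes was a member, and BMI1B, BMI1C and PWO1 were not matched in the annotation. The paper reports UBP5 binding at VRN2 and FIE, which are members, and at CLF, EMF2, MSI1 and BMI1B. Of the latter, BMI1B could not be looked up and the others are not members. The rule takes only moderate summits in introns near the start, so this says nothing about binding elsewhere in those genes. UBP13, an H2A deubiquitinase, had 2.45 and 1.90, and UBP26, an H2B deubiquitinase, had 2.07 and 1.81. TRB2, a Telobox-binding factor, had 2.47 and 2.32 in a 5′ UTR intron, and BPC5, a GAGA-binding factor, had 2.87 and 2.48 in another. ACT8, a vegetative actin, had 2.60 and 2.09, and the profilins PRF1 and PRF3 had 3.22 and 2.67 and 2.36 and 1.74. UBQ4, a polyubiquitin gene, had 2.00 and 1.58, and CCA1, a clock transcription factor, had 2.14 and 1.75 with the summit 77 bp into an intron of 84 bp. All 12 were higher in replicate 1, and their replicate 1 summits lay between 137 and 489 bp from the TSS.

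Members were found on all 5 chromosomes, with 412 (26.4%) on chromosome 1, 225 on chromosome 2, 315 on chromosome 3, 219 on chromosome 4 and 388 (24.9%) on chromosome 5. These counts were not set against the eligible introns of each chromosome, and the chromosomes and the excluded windows differ in length.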

How the data were processed

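ChIP-seq was analysed from the peak lists of 2 UBP5-GFP IP replicates; the 1 input entered through the caller. The authors cleaned reads (SOAPnuke), mapped them on TAIR10 (Bowtie2 2.4.5), retained unique alignments and ran MACS3 3.0.0 in paired-end mode for each replicate with the input as control and 0.01 as the q-value limit. Whether duplicates were removed is not given in the sources used here. The deposited lists give a fold enrichment (a ratio), the −log10 p-value and q-value, and a score, which was not used. The background level solved from fold enrichment and p-value was 44.0 and 121 in scaled fragments in replicates 1 and 2. It comes after the caller's scaling and is not the depth of the IP libraries. For these the paper lists far more uniquely mapped reads in replicate 2 than in replicate 1.

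Peak starts, ends and summits, positions deposited by the authors, were placed on the RefSeq TAIR10.1 annotation (0 peaks passed a chromosome end), without the windows 11.5 to 17.7, 1.1 to 7.2, 10.3 to 17.3, 1.5 to 6.3 and 9 to 16 Mb of chromosomes 1 to 5. Exons of any gene excluded a summit. Values of replicate 2 use the same rule with its summits, except fold enrichment, pileup, input level and cover of the TSS, which are given for the same members. Members, classes and lists were chosen with earlier results of these data known. Genes were named by rule: per class, the 5 highest and 2 lowest lower fold enrichments, the 5 nearest Teloboxes, the 3 longest GA or CT runs and the 3 longest introns; the 3 largest ratios between replicates; and listed genes; 2 genes that the rule names are not reported here. Runs near the summits of AT2G41980, AT4G35295, PIS1 and AT3G02890 were 14, 14, 12 and 20 bases, those of PIS1 and AT3G02890 in an exon. Scripts (Python 3.11.15, NumPy 2.4.6, SciPy 1.17.1, matplotlib 3.10.9) were tested on simulated data. Alternatives changed the fold enrichment limit, q-value, overlap, placing summit, transcript set, distance, regions and word.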

Additional observations from a re-analysis of the deposited data

How the results depend on the processing

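The number of members ran from 1378 (lower fold enrichment under 2.5) to 1747 (exons and introns of the transcript with the longest coding sequence only), within 1.5 times the 1559 reported in all 10 alternatives. No value has a test, so a shift is measured against the SD between placement by replicate 1 and by replicate 2, which was small, and 49 of the 71 recomputed values other than the number of members moved by more than it. The direction between the classes did not change in any alternative for distance and occupancy. The share of members in 5′ UTR introns was 32.7% under 2.5, 33.2% under 4, 33.2% with q under 1e-05, 33.1% with the summit of replicate 2, 34.6% with the longest coding transcript and 32.2% within 1000 bp. The distance of coding introns exceeded that of 5′ UTR introns by 35 bp with the summit of replicate 2. The median log2 fold enrichment of 5′ UTR minus coding introns, reported as 0, was 0.014 under 2.5, 0.026 under 4, 0.013 with overlap of at least 50% of each peak, -0.017 with the summit of replicate 2, and 0.013 both within 1000 bp and on whole chromosomes. The Telobox share was 19.5% under 4, 19.3% with the summit of replicate 2, 10.5% within 50 bp, 26.7% within 150 bp, windows that are shorter and longer by construction, and 21.7% with the word AAACCCT. The replicate 2 summit lay in the same intron for 73.1% under 4, 73.2% with q under 1e-05, 73.4% with overlap of 50%, 73.8% with the longest coding transcript and 71.4% within 1000 bp, and the replicate 1 summit did so for 71.8% when replicate 2 placed the site. In the order under 2.5, under 4, q under 1e-05, overlap of 50%, summit of replicate 2, longest coding transcript, 1000 bp and whole chromosomes, the share of 5′ UTR introns with a member was 14.6%, 18.1%, 15.9%, 16.2%, 16.8%, 20.5%, 15.8% and 16.2%, and that of coding introns 5.66%, 6.90%, 6.03%, 6.24%, 6.43%, 6.68%, 3.55% and 5.88%. The 1000-bp window adds eligible introns far from the TSS, which lowers the share of coding introns by construction.

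With 1 replicate alone, the range was 1584 to 1652 members, 32.9% to 33.6% in 5′ UTR introns, 35.5 to 47 bp, 0 to 0.029 in log2 fold enrichment, 15.5% to 19.1% with a Telobox, and 17.2% to 17.6% of 5′ UTR and 6.42% to 6.78% of coding introns. No paired analysis was possible because no result comes from a test across samples, both replicates share 1 input, and the IP replicates form a single group. The cause of these shifts was not tested.

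Depth, peak width and the annotation limit placement: an intron shorter than the offset between summits cannot be assigned with certainty, and IP background shared by both replicates cannot be told apart from UBP5 occupancy.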
